A study of Caenorhabditis elegans with 4 samples.

Results

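The 45 genes described here are protein-coding genes of Caenorhabditis elegans that carry no name beyond their sequence name, such as F07E5.9, and that were nearly silent in wild-type larvae but counted in met-2 set-25 double mutants. They were chosen by their levels in CPM (the count divided by the library total, times 1000000). A member had under 0.5 CPM in both N2 libraries and at least 1 CPM in both mutant libraries, and genes whose names start with T28A8 or Y57A10A were left out. Of 46748 genes in the count tables, 8738 were protein-coding with a sequence name only, 3345 of those, after that exclusion, were under the N2 limit, and 45 passed both limits. Their difference between genotypes is therefore a description of how they were picked, and nothing is read from a test of it.

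The study compared whole L3 larvae of GW638, which carries met-2(n4256) and set-25(n5021), with whole L3 larvae of Bristol N2, the wild type. Worms of both genotypes were grown at 20 °C, and poly(A) RNA was sequenced from 2 libraries each: the mutant libraries are called rWQS029 and rWQS045, and the N2 libraries rWQS019 and rWQS042. Whole animals were used, so more cells of a type and more RNA per cell cannot be told apart, and the mutations are carried by every cell. The libraries held 36581352 and 48636767 counts for met-2 set-25, against 22849521 and 56879896 counts for N2.

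Both mutated genes encode enzymes that methylate lysine 9 of histone H3. In worms MET-2 places mono- and dimethylation, SET-25 adds the third methyl group, and the methylated lysine marks silent chromatin, much of it on repeats and on the arms of the autosomes near the nuclear envelope. A sequence name gives the clone on which a gene was found and its number on that clone, and a gene that keeps only this name has usually not been studied by mutation or by family. For that reason the members are described here by level, structure and place, and no function is given for them.

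As a check of the labels, met-2 had 34.3 and 32.4 CPM in met-2 set-25 libraries, against 62.4 and 56.0 CPM in N2 libraries, which did not overlap. For set-25 the levels were 12.4 and 10.7 CPM in met-2 set-25 libraries and 11.5 and 17.6 CPM in N2 libraries, and these overlapped. Counts per gene do not show whether the reads fall in the deleted parts.

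The mutant and the wild-type levels of the members were more than an order of magnitude apart in sum. The 45 genes together had 147.1 and 148.9 CPM in the 2 mutant libraries (5380 and 7240 counts), against 9.19 and 9.49 CPM in the 2 N2 libraries (210 and 540 counts). The median member had 2.32 and 1.95 CPM in met-2 set-25, against 0.175 and 0.176 CPM in N2. Levels were low throughout: the mean mutant level was 10 CPM or more for 1 member, C55C3.3, at least 5 CPM for 8 members, and under 2 CPM for 18. CPM is not corrected for length, so this order is one of reads and not of levels per length. The ratio of summed counts, each over the summed library totals, had a median of 14.4 and ran from 3.05 for F21C10.4 to 131 for F07E5.9. It was at least 10 for 28 members, between 5 and 10 for 11, and under 5 for 6. In N2, 20 members had fewer than 10 counts in each library, and C33C12.12 and F09C6.13 had a count of 0 in 1 of them, which allows up to 0.131 CPM in rWQS019 and 0.0527 CPM in rWQS042 (3 counts). No member had a count of 0 in both.

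**Figure D1:**
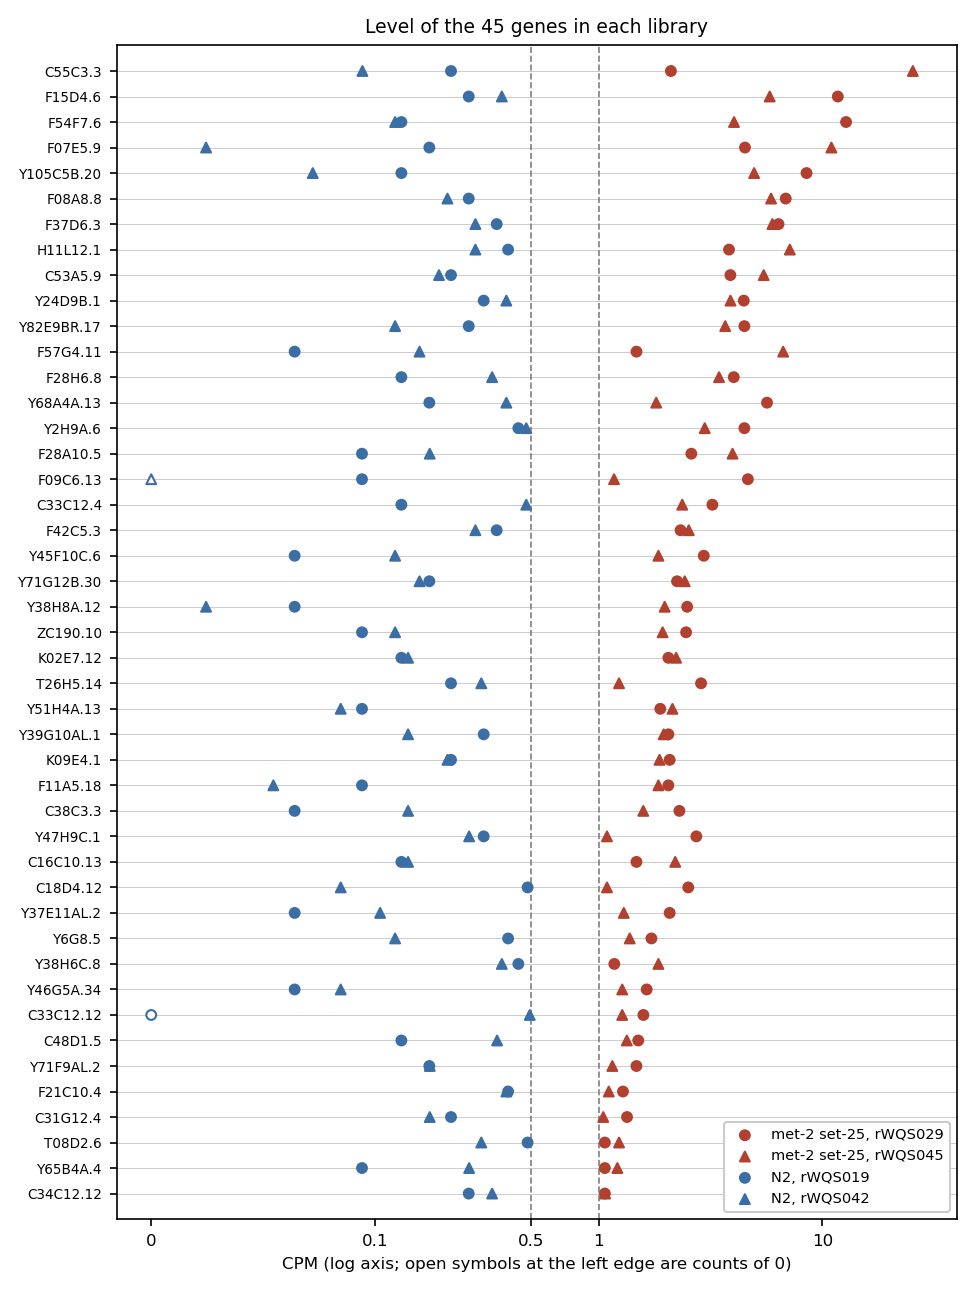
CPM of each of the 45 genes (rows, highest mean mutant level at the top) in the met-2 set-25 libraries (red) and the N2 libraries (blue), on a log axis. The dashed lines are the limits of 0.5 and 1 CPM that chose the genes, so the gap between the colours is set by the choice, and only 1 row, C55C3.3, has a mean above 10 CPM in the mutant.

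The opposite choice found fewer genes. With the genotypes exchanged, 12 of 3212 sequence-named genes under 0.5 CPM in both mutant libraries had at least 1 CPM in both N2 libraries (0.374%), whereas the choice used here took 45 of 3345 (1.35%). Of protein-coding genes with another symbol, 16 of 2708 (0.591%) were silent in N2 and counted in met-2 set-25, and 6 of 2709 (0.221%) passed the other way. Among pseudogenes the numbers were 18 of 1722 (1.05%) and 2 of 1690 (0.118%). Of the silent sequence-named genes, 91 reached 1 CPM in rWQS029 and 65 in rWQS045, and 45 did in both. Over all genes tested, too, more were higher than lower in met-2 set-25. DESeq2 called 412 higher and 136 lower at an adjusted p under 0.05. At an unadjusted p under 0.05, edgeR had 990 higher and 618 lower. The limits and libraries here are those that chose the members, so these shares are a description and not a trait of the members.

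**Figure D2:**
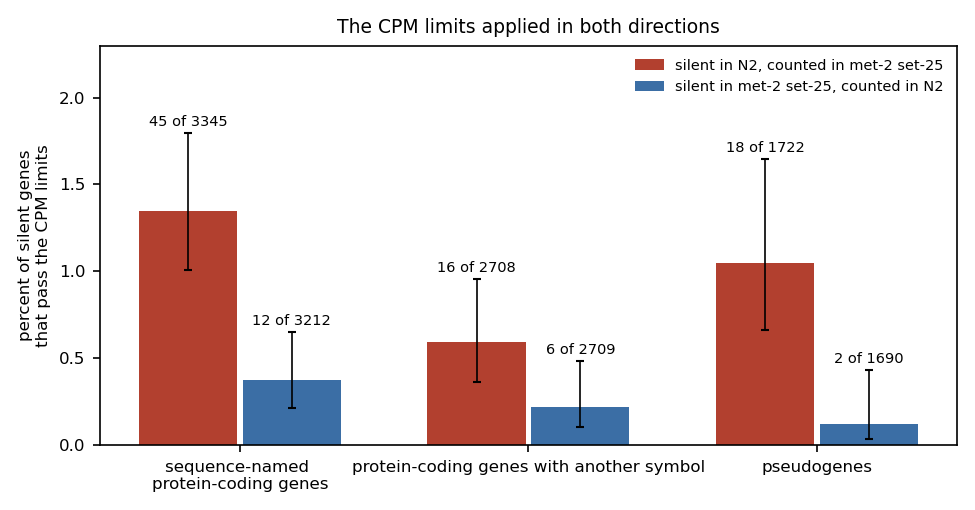
Percent of silent genes (under 0.5 CPM in both libraries of a genotype) with at least 1 CPM in both libraries of the other, for 3 classes of gene. Bars carry 95% Wilson intervals, which treat genes as independent and do not cover the spread between libraries. In each class the red bar, silent in N2 and counted in met-2 set-25, is the taller, with 45 of 3345 against 12 of 3212 for sequence-named genes.

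The member with the highest mean, C55C3.3, owed it to 1 library. C55C3.3 lies in the central part of chromosome IV (5685287 to 5688273 in the WBcel235 annotation, which gives it 11 exons and a protein of 504 residues) and had 2.10 and 25.4 CPM in met-2 set-25 (77 and 1235 counts), against 0.219 and 0.0879 CPM in N2 (5 counts in each). The 2 mutant libraries thus differed 12.1-fold for this gene, the widest gap of any member, although both were above both N2 libraries. Without it the remaining 44 genes summed to 145.0 and 123.5 CPM in the mutant.

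F15D4.6 and F54F7.6 had the next highest means and were higher in rWQS029. F15D4.6, on the right arm of chromosome II (13249186 to 13250063, 4 exons, 66 residues), had 11.7 and 5.82 CPM in met-2 set-25, against 0.263 and 0.369 CPM in N2. F54F7.6, on the X chromosome (11865383 to 11866827, 363 residues), had 12.8 and 4.03 CPM in met-2 set-25, against 0.131 and 0.123 CPM in N2. Y105C5B.20, on the right arm of chromosome IV (15993460 to 15994605, 222 residues), was likewise higher in rWQS029, with 8.50 and 4.96 CPM in met-2 set-25, against 0.131 and 0.0527 CPM in N2. For these 3 genes the lowest mutant level was 15.8, 30.7 and 37.7 times the highest N2 level.

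F07E5.9 had the largest ratio of summed counts. This gene of 10 exons on the left arm of chromosome II (2076170 to 2080525, 412 residues) had 165 and 534 counts in met-2 set-25, against 4 counts and 1 count in N2. The levels were 4.51 and 10.98 CPM in met-2 set-25, against 0.175 and 0.0176 CPM in N2, a ratio of 131 with an exact 95% interval of 55.8 to 404. Such intervals cover counting error only, not the spread between libraries or the choice of the genes by these same counts. The next largest ratios also rested on a few N2 counts: 123 for C55C3.3, 106 for F09C6.13 (29.1 to 882, from 2 N2 counts in all) and 87.5 for Y38H8A.12 (23.9 to 728, also from 2).

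A group of leading members had nearly equal levels in the 2 mutant libraries. F08A8.8 (chromosome I, 12953969 to 12955322) had 6.86 and 5.90 CPM in met-2 set-25, against 0.263 and 0.211 CPM in N2. F37D6.3 (chromosome I, 10486699 to 10487341) had 6.37 and 5.98 CPM in met-2 set-25, against 0.350 and 0.281 CPM in N2. Y24D9B.1 (chromosome IV, 4317358 to 4321921) had 4.46 and 3.89 CPM in met-2 set-25, against 0.306 and 0.387 CPM in N2. These genes differed less than 1.2-fold between mutant libraries. Y82E9BR.17 (chromosome III, 1447494 to 1455774) was close to them, with 4.48 and 3.68 CPM in met-2 set-25, against 0.263 and 0.123 CPM in N2. C53A5.9 (chromosome V, 14556966 to 14558857) had 3.88 and 5.47 CPM in met-2 set-25, against 0.219 and 0.193 CPM in N2.

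H11L12.1 and F57G4.11, also among the 12 highest members, were higher in rWQS045. H11L12.1 (17710285 to 17711698) lies at 99.96% of the length of the X chromosome, almost at its right end, and had 3.83 and 7.16 CPM in met-2 set-25, against 0.394 and 0.281 CPM in N2. F57G4.11 (chromosome V, 17625206 to 17627598, 548 residues) had 1.48 and 6.68 CPM in met-2 set-25, against 0.0438 and 0.158 CPM in N2. After C55C3.3, F57G4.11 had the widest excess in rWQS045, at 4.53-fold.

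The members did not share a direction between the 2 mutant libraries. By CPM, 15 members were higher in rWQS045 and 30 were lower, 28 differed less than 1.5-fold, and 10 differed more than 2-fold. The largest excesses in rWQS045 were those of C55C3.3 (12.1-fold), F57G4.11 (4.53-fold), F07E5.9 (2.43-fold) and H11L12.1 (1.87-fold). The largest excesses in rWQS029 were those of F09C6.13 (3.97-fold), F54F7.6 (3.17-fold), Y68A4A.13 (3.13-fold) and Y47H9C.1 (2.51-fold). Y68A4A.13 had 5.66 and 1.81 CPM in met-2 set-25, against 0.175 and 0.387 CPM in N2, and Y47H9C.1 had 2.73 and 1.09 CPM in met-2 set-25, against 0.306 and 0.264 CPM in N2. The median difference of log2(CPM + 0.5) between rWQS045 and rWQS029 was -0.19 over the 45 genes and turned to 0.014 with TMM-scaled totals, where 24 members were higher in rWQS045, so no common direction is given.

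**Figure D3:**
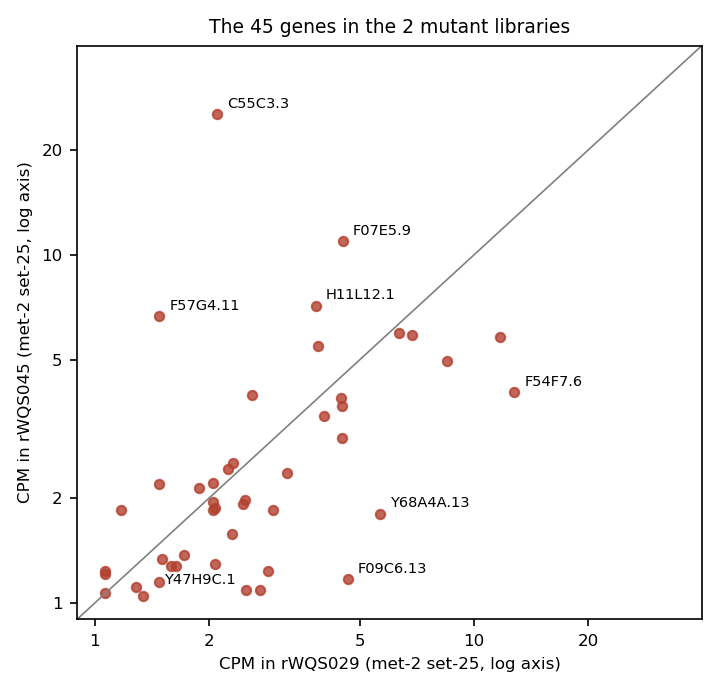
CPM of the 45 genes in rWQS029 (x) and rWQS045 (y), both met-2 set-25, on log axes, with the line of equal level. The 4 genes with the largest excess in each library are named, and C55C3.3 lies farthest from the line, at 2.10 and 25.4 CPM.

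Some lists of tissue marker genes differed with the genotype or between the mutant libraries, and others did not. A list of 23 germline and meiosis genes summed to 1380 and 2383 CPM in met-2 set-25, against 510.4 and 534.5 CPM in N2. Of them, 21 were higher in both mutant libraries than in both N2 libraries, 22 were higher in rWQS045 than in rWQS029, and none was at 0 in all libraries. The share of all genes that meet either condition was not computed, so these counts are a description. The 17 oocyte and early embryo genes summed to 166.5 and 242.5 CPM in met-2 set-25, against 102.3 and 89.9 CPM in N2. The 18 neuronal genes summed to 1321 and 935.6 CPM in met-2 set-25, against 1766 and 1429 CPM in N2, and none was higher in rWQS045 than in rWQS029. The 8 late larval and adult cuticle genes summed to 7.30 and 43.0 CPM in met-2 set-25, against 5.25 and 5.33 CPM in N2. The 18 sperm genes summed to 11.6 and 10.9 CPM in met-2 set-25, against 9.10 and 7.42 CPM in N2, with msp-10 and msp-19, which encode major sperm proteins, at 0 in all libraries. The 9 intestinal genes summed to 7129 and 5131 CPM in met-2 set-25, against 5018 and 5640 CPM in N2, and the 8 body wall muscle genes to 12854 and 13160 CPM in met-2 set-25, against 10735 and 13266 CPM in N2. For both of these lists the sums overlapped between genotypes. In both mutant libraries, 10 oocyte and early embryo, 6 sperm and 3 cuticle genes were above both N2 libraries. So were 1 intestinal, 1 body wall muscle and 0 neuronal genes. With no share of all genes computed, these counts too are a description and are not read as shifts of a tissue. The part of the differences between the sums in the members' levels was not tested.

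The genes nearest to the limits show how thin the edges of the choice are. Just inside the N2 limit, C33C12.12 had 1.59 and 1.27 CPM in met-2 set-25, against 0 and 0.492 CPM in N2, T08D2.6 had 1.07 and 1.23 CPM in met-2 set-25, against 0.481 and 0.299 CPM in N2, and C18D4.12 had 2.51 and 1.09 CPM in met-2 set-25, against 0.481 and 0.0703 CPM in N2. Just outside it, the highest N2 level was 0.510 CPM for ZC239.22 and 0.525 CPM for both T11F9.10 and C02B8.1. A single read more in rWQS019 would move T08D2.6 and C18D4.12 out, and a single read less there would move C02B8.1 in. Just inside the mutant limit, the lowest mutant level was 1.05 CPM for C31G12.4 and 1.07 CPM for T08D2.6 and Y65B4A.4. Just outside it were Y6E2A.7, at 0.987 CPM in rWQS045, and T20F5.5 and W09C5.12, each at 0.966 CPM.

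The gene models of the members were somewhat longer in the median than those of the other silent genes and shorter than those of sequence-named genes above the N2 limit. CPM is not corrected for length and longer genes reach a CPM limit more easily, so part of this order may follow from the choice. They had a median of 921 exonic bases (84 to 2723) and the protein a median of 215 residues (27 to 827), with a median of 4 exons. The other 3300 silent sequence-named genes had medians of 738.5 bases, 194 residues and 4 exons, and the 5392 sequence-named genes above the N2 limit had 1168 bases, 297 residues and 5 exons. Proteins under 100 residues were encoded by 10 members (22.2%), against 20.7% of the other silent genes and 8.03% of those above the limit.

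By the mean of the mutant libraries, the 2 shortest gene models had the highest levels per length. In rWQS045, however, C55C3.3 (16.04 RPKM, CPM per kilobase of exon) and K02E7.12 were above C18D4.12. The length is the divisor, so this order depends on very short annotated lengths and is no measure of a stronger response. Y38H8A.12 (chromosome IV, 13460878 to 13460976) is annotated as 1 exon of 99 bases that encodes 32 residues. It had 25.1 and 19.9 RPKM in met-2 set-25, against 0.442 and 0.178 in N2. Its lowest mutant level was 45.1 times its highest N2 level, the widest clearance of any member, but from 1 count in each N2 library. C18D4.12 (chromosome V, 17530503 to 17530586), a single exon of 84 bases for 27 residues, had 29.9 and 12.97 RPKM in met-2 set-25, against 5.73 and 0.837 in N2. K02E7.12 (chromosome II, 1071175 to 1071342), a single exon of 168 bases for 55 residues, had 12.2 and 13.2 RPKM in met-2 set-25, against 0.782 and 0.837 in N2. By contrast, the 827-residue gene C31G12.4 had 0.492 and 0.385 in met-2 set-25, against 0.0804 and 0.0646 in N2. The median member had 2.55 and 2.83 RPKM in met-2 set-25, against 0.185 and 0.188 in N2. Lengths come from the current annotation, not from the older one used for counting.

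All 6 chromosomes held members: 7 on chromosome I, 8 on II, 3 on III, 9 on IV, 14 on V and 4 on X. Of the 41 members on autosomes, 31 lay outside the central 50% of the chromosome, on its arms (75.6%, 95% Wilson interval 60.7 to 86.2%). The same holds for 1538 of 2883 other silent sequence-named genes (53.3%, 51.5 to 55.2%) and for 1758 of 4495 sequence-named genes above the N2 limit (39.1%, 37.7 to 40.5%). Genes with another symbol that pass the same limits lay on arms in 9 of 15 cases (60.0%). With arms taken as all but the central 33.3%, the shares were 90.2% of members and 71.1% of the other silent genes. Apart from the clone names left out, place was not used to choose the members, but neighbouring genes are not independent of each other, so the shares are a description.

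**Figure D4:**
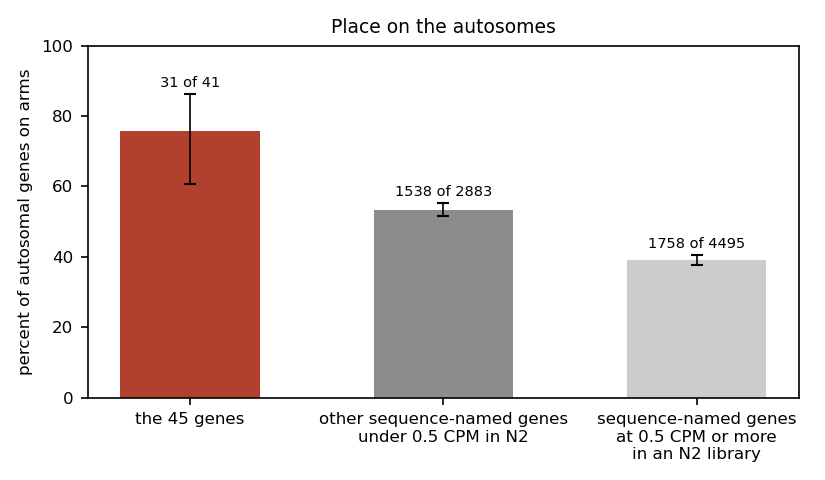
Percent of autosomal genes that lie on chromosome arms, outside the central 50%, with 95% Wilson intervals that treat genes as independent. The 45 genes stand at 75.6% (31 of 41 autosomal genes), other sequence-named genes under 0.5 CPM in both N2 libraries at 53.3%, and the rest of the sequence-named genes at 39.1%.

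Most members stood alone among the chosen genes. There were 2 pairs within 20 kb. C33C12.4 (2165440 to 2166476) and C33C12.12 (2168948 to 2170185) lie on the same strand of chromosome II, 2472 bases apart, with the F-box gene fbxb-38 between them. C33C12.4 had 3.23 and 2.36 CPM in met-2 set-25, against 0.131 and 0.475 CPM in N2, and fbxb-38 had 3.03 and 2.08 CPM in met-2 set-25, against 0.0875 and 0.861 CPM in N2. All 3 genes were higher in rWQS029 than in rWQS045, and higher in rWQS042 than in rWQS019, so they followed one order over the 4 libraries. Y6G8.5 (17614694 to 17615709) and F57G4.11 lie on opposite strands of chromosome V, 9497 bases apart. Y6G8.5 had 1.72 and 1.38 CPM in met-2 set-25, against 0.394 and 0.123 CPM in N2, and did not share the excess of F57G4.11 in rWQS045.

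Several protein-coding genes next to the members were also higher in the mutant. Of the genes directly left or right of a member, 47 were no members themselves and had a mean of at least 1 CPM in a genotype. In 11 of these 47 (23.4%) log2(mean CPM + 0.5) was higher in met-2 set-25 by at least 1, which is 2-fold on this scale, with both mutant libraries above both N2 libraries, and none was lower by the same measure. The background for higher genes was 4.65% over all 12825 such protein-coding genes, and 6.24% (167 of 2675) over the neighbours of the other silent sequence-named genes. For lower genes it was 3.78% and 4.22% (113 of 2675), so the lack of lower genes among 47 is close to the background. The shares are given without a test. The 11 genes lay next to 10 members. Of the 47, 7 overlap the member, and without these 9 of 40 were higher (22.5%). Within 2 kb, 9 of 31 were higher (29.0%). For neighbours of the other silent genes these shares were 6.46% (156 of 2413) and 6.58% (123 of 1870). Levels of neighbours were not used in the choice, but the libraries are the same and reads without strand can be shared between close genes, and the part of such reads was not tested.

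The strongest of these neighbours was F15D4.5, 1412 bases left of F15D4.6 on the same strand. F15D4.5 had 329.8 and 280.2 CPM in met-2 set-25, against 1.36 and 2.32 CPM in N2. By CPM it was higher in rWQS029 than in rWQS045, like F15D4.6 but by a much smaller margin. Next to C16C10.13 (chromosome III, 4176440 to 4177653), 281 bases away on the opposite strand, hrde-1, which encodes a nuclear Argonaute of inherited RNA silencing in the germline, had 339.5 and 501.7 CPM in met-2 set-25, against 49.9 and 64.7 CPM in N2. C16C10.13 itself had 1.48 and 2.20 CPM in met-2 set-25, against 0.131 and 0.141 CPM in N2, and like hrde-1 was higher in rWQS045 than in rWQS029. Next to Y24D9B.1, 218 bases away on the same strand, set-9, a SET domain gene, had 56.996 and 69.5 CPM in met-2 set-25, against 4.11 and 9.70 CPM in N2. On its other side trpl-2 had 10.1 and 13.7 CPM in met-2 set-25, against 4.11 and 6.89 CPM in N2.

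Both neighbours of F09C6.13 shared its excess in rWQS029. F09C6.13 (chromosome V, 16885044 to 16885490, 77 residues) had 4.65 and 1.17 CPM in met-2 set-25, against 0.0875 and 0 CPM in N2. F09C6.12, 1790 bases to the left, had 4.89 and 0.802 CPM in met-2 set-25, against 0.350 and 0.141 CPM in N2. On the right, 1867 bases away on the opposite strand, ifas-2 had 4.02 and 0.432 CPM in met-2 set-25, against 0.350 and 0.0352 CPM in N2. The 3 genes kept the same order over the 4 libraries, rWQS029 highest and rWQS042 lowest. F08A8.5 lies 3 bases from F08A8.8 on the same strand and had 8.67 and 7.18 CPM in met-2 set-25, against 1.18 and 1.09 CPM in N2. Y38H8A.7, 4063 bases from Y38H8A.12, had 5.60 and 9.97 CPM in met-2 set-25, against 0.875 and 1.48 CPM in N2.

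**Figure D5:**
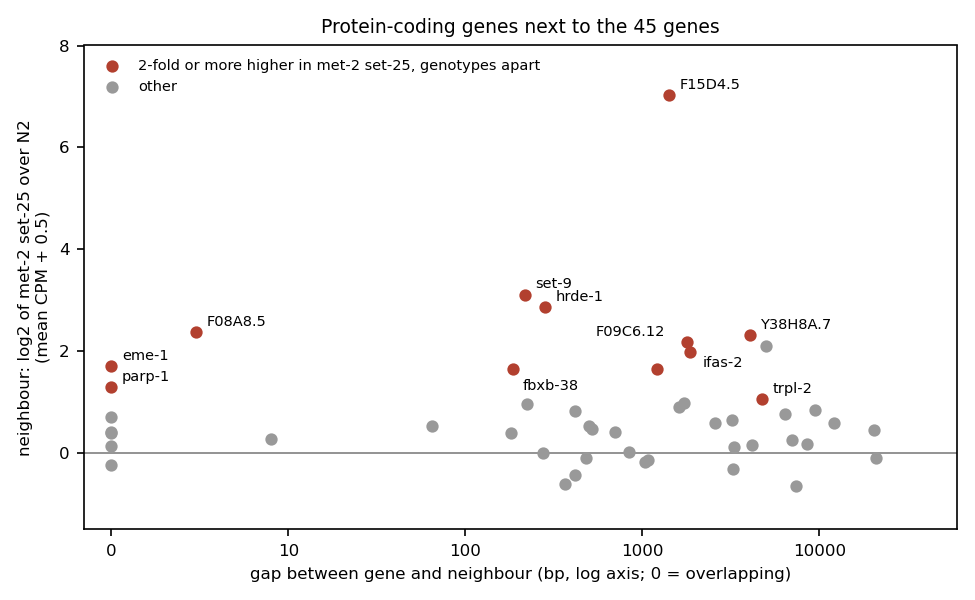
The 47 protein-coding neighbours of the 45 genes, by gap in bases (log axis, overlapping genes at 0) and by log2 of met-2 set-25 over N2 (mean CPM + 0.5). Red points are the 11 genes counted as higher, with fbxb-38 drawn at both of its gaps (185 and 1215 bases), and F15D4.5 stands highest.

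Other members lay next to genes with few or no reads. Both neighbours had a mean under 1 CPM in both genotypes for 14 of the 45 members (31.1%), against 34.8% of the other silent sequence-named genes, a share close to the members'. These 14 include C55C3.3, F07E5.9, F54F7.6, C53A5.9 and F57G4.11 of the 12 highest. Next to F07E5.9, F07E5.8 (557 bases away) had 0.0273 and 0.0206 CPM in met-2 set-25, against 0.0438 and 0 CPM in N2, and T16A1.4 (1032 bases away) had 0.0273 and 0.0411 CPM in met-2 set-25, against counts of 0 in N2. Next to C53A5.9, srg-47 had counts of 0 in all 4 libraries and srt-32 had at most 0.0438 CPM. Next to C55C3.3, C55C3.6 had 0.137 and 0.884 CPM in met-2 set-25, against 0.0438 and 0.0527 CPM in N2, and was thus also higher in rWQS045. Next to ZC190.10, also among the 14, ZC190.8 had 1.15 and 0.576 CPM in met-2 set-25, against 0.0438 and 0.105 CPM in N2, above both N2 libraries in each mutant library though under 1 CPM in the mean.

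In 14 members another annotated gene overlapped the gene, in 10 of them at an exon, and 31 members overlapped none. The kit did not mark strand, so reads from the 2 strands of such a stretch cannot be separated. C16C10.13 overlaps C16C10.2, which had 44.5 and 49.7 CPM in met-2 set-25, against 33.4 and 53.0 CPM in N2. F08A8.8 overlaps acox-1.4, an acyl-CoA oxidase gene, with 40.6 and 53.9 CPM in met-2 set-25, against 57.2 and 54.9 CPM in N2. C34C12.12 overlaps C34C12.2 on the same strand, with 29.3 and 28.02 CPM in met-2 set-25, against 20.6 and 22.9 CPM in N2. The levels of acox-1.4 were lower in both mutant libraries, those of C16C10.2 overlapped between genotypes, and those of C34C12.2 were higher in both mutant libraries, by less than 1.5-fold.

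The partners of Y65B4A.4 and Y71F9AL.2 were themselves higher in the mutant. By smaller margins, so were the partners of K09E4.1 and Y71G12B.30. Of these, cacn-1 had 51.1 and 62.9 CPM in met-2 set-25, against 39.8 and 45.5 CPM in N2. Y71G12B.2 had 3.12 and 1.44 CPM in met-2 set-25, against 1.40 and 1.04 CPM in N2. Y65B4A.4 (chromosome I, 621559 to 624439) had 1.07 and 1.21 CPM in met-2 set-25, against 0.0875 and 0.264 CPM in N2, and its partner eme-1, a subunit of a DNA endonuclease of recombination repair, had 30.0 and 28.3 CPM in met-2 set-25, against 8.23 and 9.04 CPM in N2. Y71F9AL.2 (chromosome I, 2915176 to 2918861) had 1.48 and 1.15 CPM in met-2 set-25, against 0.175 and 0.176 CPM in N2, and its partner parp-1, a poly(ADP-ribose) polymerase gene, had 33.0 and 34.3 CPM in met-2 set-25, against 13.6 and 13.4 CPM in N2. C33C12.4 and C33C12.12 both overlap the antisense RNA gene anr-48, which had 29 and 24 counts in met-2 set-25, against 0 and 33 counts in N2. Its order over the N2 libraries was that of the members. For these members the counts of the partner and of the member are uncertain. Y65B4A.4, Y71G12B.30, C33C12.4 and C33C12.12 overlap their partners at an exon. For Y71F9AL.2 and K09E4.1 only the spans overlap, with no exon shared.

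Across all genes, edgeR's quasi-likelihood test called no gene at an adjusted p under 0.05, members included, so the share called higher was 0% of 15978 genes. At an unadjusted p under 0.05 it had 6.2% of genes higher, among them 44 of the 45 members. DESeq2, which the study used, called 2.49% of 16562 genes higher and 37 of the 45 members. Because the same libraries chose the members, nothing is read from these counts. The 8 members without a DESeq2 call were C18D4.12, Y38H6C.8, C33C12.12, C48D1.5, F21C10.4, T08D2.6, Y65B4A.4 and C34C12.12, all with a mean under 2 CPM in the mutant.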

How the data were processed

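Poly(A) RNA of whole L3 larvae was sequenced, with 2 libraries per genotype. The values the authors deposited are raw counts of reads for each gene, neither normalized nor pooled. The study's methods give the TruSeq RNA kit, which does not mark strand, STAR alignment to ce10 with annotation WS235, and HTSeq, while featureCounts stands in the submitters' processing notes. Tool versions are not given in the sources used here, nor is how reads of overlapping genes or copies were assigned. The columns name the genotype without a replicate number, so libraries keep their identifiers. Columns left out numbered 0. Whether libraries came from separate cultures is not stated, so a p-value reflects the spread among these libraries alone, possibly a technical one.

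CPM values were computed from the deposited counts with column totals. A floor of 3 counts was used for a count of 0, and intervals cover counting error only. Gene types, lengths and positions came from the Ensembl 115 annotation of WBcel235, matched by WormBase gene identifier (46449 genes matched, 299 did not). The count tables hold no coordinates. Fits used edgeR 4.0.16 (quasi-likelihood, filterByExpr, TMM), DESeq2 1.42.0 and limma 3.58.1 in R 4.3.3 with Benjamini-Hochberg adjustment, and were tested on simulated data.

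The members and lists were chosen with earlier results of these data known. Named members were the 12 with the highest mean mutant CPM, any with no N2 count (there were 0), the 4 with the largest and the 4 with the smallest ratio of mutant libraries, those within 20 kb of another member, and the 3 genes nearest to each limit on each side. Members named by length, overlap or neighbour were added after their values were seen. Protein and genome sequences were not used here.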

Additional observations from a re-analysis of the deposited data

How the results depend on the processing

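Of 53 alternative values, 32 kept their direction and stayed within range. Some settings could move the value in 1 direction only, as given below. The number of members was 18 with limits of 0.5 and 2 CPM and 8 with limits of 0.25 and 2 CPM. With 1 library left out the limits are looser, so this number cannot fall and the 45 are kept by construction. It lay between 61 (without rWQS019) and 91 (without rWQS045), which is no check of the choice. TMM scaling gave 46 members, 42 of them shared. The median log2 difference between mutant libraries turned to 0.014 with TMM-scaled totals. The share on arms was 90.2% with arms taken as all but the central 33.3%. As an alternative chosen after seeing the data, it lay between 67.8% and 75.4% in genes chosen without 1 library. Those genes include the 45, so these shares are no separate check. Likewise chosen after seeing the data, 11 to 16 neighbours were higher without 1 library. These were from 23.4% (11 of 47, without rWQS019) to 34.0% (16 of 47, without rWQS042). The matching shares of all protein-coding genes were 4.69% to 7.53%. edgeR without a filter called 1223 genes and 42 members, and DESeq2 548 genes and 37 members. Without rWQS019, rWQS042, rWQS029 and rWQS045 in turn, edgeR called 0, 0, 228 and 133 genes (0, 0, 18 and 7 members) and DESeq2 155, 203, 1433 and 930 genes (24, 16, 30 and 28 members). In the fits with a lone library in a genotype, that library is assumed to vary like the other genotype. limma voom called 0 genes and 0 members. No paired analysis was possible because the column names carry no replicate number. The comparison of related proteins was not run. Depth limits the N2 levels: the median member had 4 counts in rWQS019 and 10 counts in rWQS042.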

Other observations

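A pair of members, noticed after their values were seen, sits in the same arrangement beside a pair of related SET domain genes. Y24D9B.1 (chromosome IV, 4317358 to 4321921) and Y51H4A.13 (chromosome IV, 16641679 to 16646373) are annotated with 6 exons each and proteins of 550 and 547 residues. Each lies on the strand of its neighbour, downstream of set-9 for Y24D9B.1 (218 bases) and of set-26 for Y51H4A.13 (418 bases). set-9 and set-26 are known as close paralogs. Y51H4A.13 had 1.89 and 2.14 CPM in met-2 set-25, against 0.0875 and 0.0703 CPM in N2, and Y24D9B.1 had 4.46 and 3.89 CPM in met-2 set-25, against 0.306 and 0.387 CPM in N2. set-26 had 38.4 and 41.9 CPM in met-2 set-25, against 12.7 and 32.2 CPM in N2, and set-9 had 56.996 and 69.5 CPM in met-2 set-25, against 4.11 and 9.70 CPM in N2. How reads shared by such copies were counted is not given, so the split within each pair is uncertain, and the likeness of the 2 members' proteins was not measured here.

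A further neighbour differed widely between libraries of the same genotype. eif-4A3, 5026 bases from Y65B4A.4, had 15.5 and 84.3 CPM in met-2 set-25, against 4.55 and 17.9 CPM in N2, a difference of 2.11 in log2(mean CPM + 0.5), and the genotypes overlapped.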
